A study of Homo sapiens with 4 samples.

Results

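The core spliceosome genes described here are those whose single platform-annotation symbol begins with SNRP, LSM, PRPF, SF3A or SF3B followed by the letters and digits of a member. The rule goes by name and uses no measured value, though the family was picked with earlier results of these data known. Some genes it takes in, such as LSM1, LSM10, LSM11 and LSM14A, act outside the spliceosome, as described with their values. It matched 39 of the 14232 genes measured. A gene with several transcript clusters, the array's gene-level probe groups, took its brightest one, which applied to LSM14B alone among the members. The 4 arrays measured total RNA of K562 ADARkd, K562 SCR, HepG2 ADARkd and HepG2 SCR cells, with 1 array for each. ADARkd cells stably carried a plasmid with an siRNA directed at ADAR1, the enzyme that turns adenosine into inosine in double-stranded RNA, and SCR cells one with a scrambled siRNA. K562 is a leukaemia line with erythroid features and HepG2 is a liver cancer line, and the purpose stated by the submitters was to learn how ADAR acts on splicing across the transcriptome. Of several siRNAs tried the one that lowered ADAR most was kept, so the arm rests on 1 siRNA sequence, and nothing in the labels says whether the stable cells were clones or pools.

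Most introns are removed by a machine built from the U1, U2, U4, U5 and U6 small nuclear ribonucleoproteins (snRNPs). The Sm proteins form a ring around the RNA of U1, U2, U4 and U5, and LSM2 to LSM8 form a like ring at the end of U6. SF3A and SF3B hold U2 at the branch site of the intron, U4, U5 and U6 join as a tri-snRNP, and PRPF proteins assemble, remodel and activate the whole. Most of these genes are expressed in almost every cell type.

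On the arrays labelled HepG2 the targeted gene, ADAR, had a log2 intensity of 7.27 in ADARkd and 8.96 in SCR, so that 31.0% of the SCR intensity was left. In K562 its log2 intensity was 6.78 in ADARkd and 7.99 in SCR, with 43.2% left. On the arrays labelled HepG2 most hepatocyte markers were low: 2 of 17 measured reached the filter level (the median of all genes' line means, 5.31 there and 5.28 in K562). One was CPS1, at 10.56 in ADARkd and 10.89 in SCR, against 3.29 in ADARkd and 3.21 in SCR in K562. The other was FOXA1, at 6.23 in ADARkd and 6.13 in SCR, against 5.62 in ADARkd and 5.53 in SCR in K562. ALB (albumin) stood at 2.97 in ADARkd and 3.04 in SCR, and AFP at 2.85 in ADARkd and 2.89 in SCR, so these arrays are called "labelled HepG2". Of 10 erythroid markers 8 reached the filter level in K562 and 1 on the arrays labelled HepG2. No intensity in the table is 0. A gene counted as kept in a line if its mean there reached the filter level. Each arm of each line is 1 array, so the differences between ADARkd and SCR inside a line carry neither a replicate check nor a p-value, and precision is limited by how few arrays there are.

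Of the 39 members, 36 were kept on the arrays labelled HepG2 and 37 in K562. LSM2, of the U6 ring, and SNRPN, the SmB-like protein of the imprinted Prader-Willi region, were kept in neither line, and LSM14B was kept in K562 alone. SNRPN had 3.62 in ADARkd and 3.98 in SCR on the arrays labelled HepG2, and 4.08 in ADARkd and 3.71 in SCR in K562. LSM2 had 5.46 in ADARkd and 5.13 in SCR on the arrays labelled HepG2, and 5.01 in ADARkd and 5.16 in SCR in K562. Levels of different genes come from different probes and are not ranked against each other. Some further genes whose RefSeq symbols fit the rule were not analysed here. Among them, SNRPD2, SNRPD3 and PRPF40B had only clusters annotated to several genes, and no cluster with a single symbol named SNRPE, SNRPG or LSM12.

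**Figure D1:**
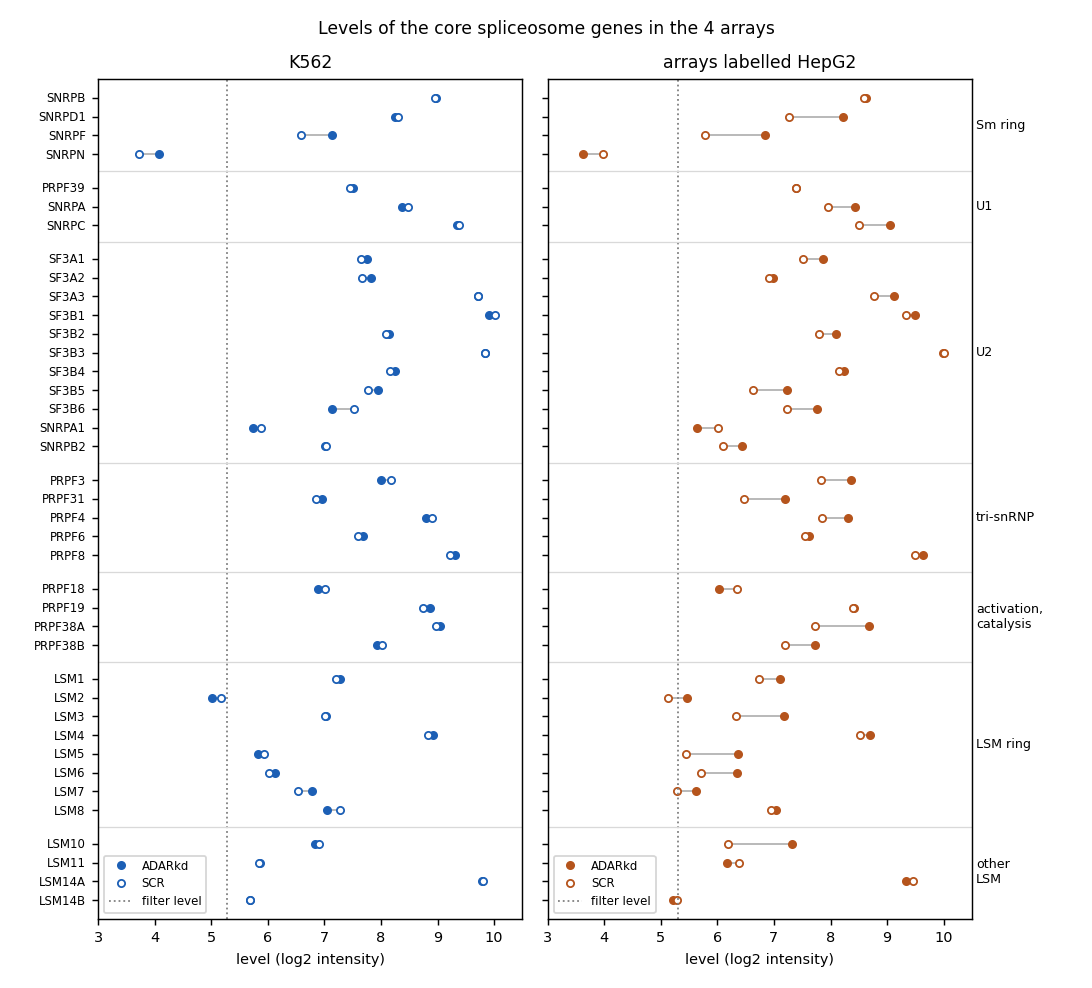
Level of each of the 39 core spliceosome genes (log2 intensity, horizontal axis) in K562 (left) and on the arrays labelled HepG2 (right), with filled circles for ADARkd, open circles for SCR and a dotted line at the filter level. Filled and open circles lie close together in K562, whereas on the arrays labelled HepG2 the filled circle is to the right for most genes, as for SNRPF at 6.85 in ADARkd and 5.77 in SCR.

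The first comparison asked which core spliceosome transcripts differed where ADAR had been lowered, on the arrays labelled HepG2. Of the 36 kept members, 9 stood at least 1.5-fold higher in ADARkd and 0 at least 1.5-fold lower. Over all 7116 kept genes the shares were 12.4% and 5.73%. The median difference of the members was 0.34 on the log2 scale, against 0.11 for all kept genes, and 30 of 36 lay above 0, against 60.9% of all kept genes. After quantile normalization 23 of 36 lay above 0, against 51.2% of all kept genes, and after loess 22, against 50.8%. With the median difference of kept genes subtracted 24 of 36 lay above 0. The genes with the largest differences were LSM10 of the U7 snRNP, the Sm proteins SNRPF and SNRPD1, PRPF38A of the precatalytic spliceosome, and LSM5 and LSM3 of the U6 ring. Only LSM10 and SNRPF reached 2-fold, which 2.46% of all kept genes did in that direction. After quantile normalization or loess 1 member reached it, and with an offset of 16 none. In the other direction 0 members and 1.57% of all kept genes did.

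The promoters of LSM10, SNRPF and PRPF38A, the brighter-in-ADARkd members with the largest differences whose promoters were at hand, are shown to give the sequence behind these names. They are followed by the promoters of SF3B6, the lowest kept member in K562, and LSM7, which differed most between the lines. Each runs 5′ to 3′ over 300 bases, 250 before the start site and 50 after it, from RefSeq on GRCh38.p14. Capitals mark matches on either strand to CCGGAAG, a core of ETS factor motifs, or to CATGCGC, part of the site of NRF1, and those of LSM10 and SNRPF hold neither. LSM10 lies at chr1:36397859-36398158 (minus strand), SNRPF at chr12:95858702-95859001 (plus strand) and PRPF38A at chr1:52404352-52404651 (plus strand). SF3B6 lies at chr2:24076277-24076576 (minus strand) and LSM7 at chr19:2328537-2328836 (minus strand).
LSM10: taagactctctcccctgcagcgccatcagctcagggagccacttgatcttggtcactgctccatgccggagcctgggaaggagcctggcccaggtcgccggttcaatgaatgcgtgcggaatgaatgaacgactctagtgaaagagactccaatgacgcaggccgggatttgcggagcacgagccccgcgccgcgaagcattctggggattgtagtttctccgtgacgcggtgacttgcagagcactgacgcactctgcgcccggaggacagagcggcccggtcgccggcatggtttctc
SNRPF: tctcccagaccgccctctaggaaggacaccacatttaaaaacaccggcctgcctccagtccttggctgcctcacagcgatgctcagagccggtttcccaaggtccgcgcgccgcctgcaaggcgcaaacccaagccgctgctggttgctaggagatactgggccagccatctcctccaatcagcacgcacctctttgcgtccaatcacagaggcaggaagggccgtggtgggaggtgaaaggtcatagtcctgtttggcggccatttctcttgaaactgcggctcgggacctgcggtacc
PRPF38A: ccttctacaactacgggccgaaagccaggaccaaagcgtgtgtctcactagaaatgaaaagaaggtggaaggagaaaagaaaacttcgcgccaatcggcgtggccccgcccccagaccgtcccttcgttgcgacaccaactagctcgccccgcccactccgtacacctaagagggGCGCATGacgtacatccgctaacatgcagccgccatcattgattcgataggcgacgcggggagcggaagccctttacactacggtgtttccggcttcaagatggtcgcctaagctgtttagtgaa
SF3B6: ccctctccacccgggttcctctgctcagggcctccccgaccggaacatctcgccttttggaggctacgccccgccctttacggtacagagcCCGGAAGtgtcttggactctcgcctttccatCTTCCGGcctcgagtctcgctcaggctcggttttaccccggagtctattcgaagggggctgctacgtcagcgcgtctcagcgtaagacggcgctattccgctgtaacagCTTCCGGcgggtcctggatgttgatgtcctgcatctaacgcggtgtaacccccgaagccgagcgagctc
LSM7: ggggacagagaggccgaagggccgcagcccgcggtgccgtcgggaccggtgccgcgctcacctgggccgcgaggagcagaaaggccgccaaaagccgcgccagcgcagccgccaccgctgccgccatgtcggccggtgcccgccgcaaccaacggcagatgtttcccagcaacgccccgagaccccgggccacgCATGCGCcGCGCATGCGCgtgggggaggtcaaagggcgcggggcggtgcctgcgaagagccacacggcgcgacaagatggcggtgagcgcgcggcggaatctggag

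RefSeq promoters were found for 32 of the 39 members. LSM1, LSM6, LSM14A, PRPF3, PRPF39, SF3B3 and SNRPD1 had none in the table. The ETS core CCGGAAG was present in 14 of the 32 (43.8%), against 12.2% of the 27305 genes with a promoter in the table and 16.9% of those measured on the arrays. It stood in the promoters of SF3A1, SF3A2, SF3A3, SF3B2, SF3B4, SF3B6, SNRPA1 and SNRPB2, which all encode U2 proteins, and in those of SNRPB, SNRPC, PRPF6, PRPF18, LSM5 and LSM8. Of the members kept on the arrays labelled HepG2, the core was found in 1 of the 7 with a promoter that stood at least 1.5-fold higher in ADARkd (LSM5) and in 13 of the 22 others with a promoter. These counts were compared after the values were seen and have no test. CATGCGC was found in 4 members (12.5%), LSM7, PRPF38A, SF3A2 and SNRPN, against 6.96% of the measured genes. In LSM7 its 3 matches begin 56, 48 and 45 bases before the start site, and the last pair overlap. The E-box CACGTG was found in SF3B1 alone (3.13%, against 11.3% of measured genes), and the CRE motif TGACGTCA in 0 of 32, against 3.23%. A match here is a run of letters in a window, not a bound site. Matches to the ETS core do not overlap those to the other motifs in the printed promoters.

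The Sm ring had 3 kept members. SNRPF, the SmF protein, had 6.85 in ADARkd and 5.77 in SCR on the arrays labelled HepG2, a log2 difference of 1.07 (2.11-fold). It was number 137 from the highest difference among the 7116 kept genes. In K562 the same gene had 7.14 in ADARkd and 6.58 in SCR, a difference of 0.56 (1.48-fold), number 27 from the highest there. SNRPF was thus the member with the highest difference in K562 and came after LSM10 on the arrays labelled HepG2. SNRPD1, the SmD1 protein, had 8.22 in ADARkd and 7.27 in SCR on the arrays labelled HepG2, a difference of 0.95 (1.94-fold). Its K562 levels were 8.24 in ADARkd and 8.30 in SCR (-0.06). SNRPB, which gives the SmB proteins, differed by 0.03 on the arrays labelled HepG2 and 0.02 in K562. SNRPB thus lay near 0 in both lines, where SNRPF was higher in ADARkd in both.

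The LSM proteins of the U6 ring and of decay are LSM2 to LSM7, common to a nuclear and a cytoplasmic ring, LSM8, which completes the ring on U6, and LSM1, which completes the ring that acts in mRNA decay. All 7 kept members lay above 0 on the arrays labelled HepG2, with a median of 0.37, but LSM8 lay below the median of all kept genes (-0.02 relative to it). LSM5 had 6.36 in ADARkd and 5.44 in SCR there (0.92, or 1.90-fold). LSM3 had 7.18 in ADARkd and 6.32 in SCR (0.85, or 1.81-fold), and LSM6 had 6.34 in ADARkd and 5.71 in SCR (0.64, or 1.55-fold). All 3 are common to both rings, but so are LSM4, which differed by 0.17, and LSM7, which differed by 0.33. Of the proteins that tell the rings apart, LSM1 differed by 0.37, more than LSM4 and LSM7, and LSM8 by 0.09. In K562 the 7 kept members ran from -0.24 (LSM8) to 0.26 (LSM7). Within that range LSM5 had 5.82 in ADARkd and 5.93 in SCR, LSM3 had 7.03 in ADARkd and 7.01 in SCR and LSM6 had 6.12 in ADARkd and 6.02 in SCR in K562, which are differences of -0.12, 0.02 and 0.09.

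LSM10 and LSM11 replace a pair of Sm proteins in the U7 snRNP, which acts in trimming the ends of histone transcripts. LSM10 had 7.31 in ADARkd and 6.18 in SCR on the arrays labelled HepG2, the highest difference of all members (1.13, or 2.19-fold). In K562 its levels were 6.84 in ADARkd and 6.90 in SCR (-0.06). Its partner LSM11 had 6.18 in ADARkd and 6.39 in SCR on the arrays labelled HepG2 (-0.21), and 5.86 in ADARkd and 5.85 in SCR in K562 (0.01). The partners therefore lay on opposite sides of 0 on the arrays labelled HepG2. LSM14A, of cytoplasmic P bodies, differed by -0.13 on the arrays labelled HepG2 and -0.03 in K562. Its paralog LSM14B had 3 transcript clusters, with differences of -0.06, 0.00 and 0.46 on the arrays labelled HepG2, and, in the same order, 0.00, 0.59 and 0.04 in K562. The brightest, used here, is the one with -0.06 and 0.00, so the clusters of this gene disagree. The others lay under the filter level in every array, from 4.08 (SCR array labelled HepG2) to 5.19 (K562 ADARkd), where differences are less certain.

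Of the U1 proteins, SNRPC (U1-C), which steadies the pairing of U1 with the 5′ splice site, had 9.06 in ADARkd and 8.51 in SCR on the arrays labelled HepG2, a difference of 0.55. In K562 its levels were 9.35 in ADARkd and 9.39 in SCR (-0.03). SNRPA (U1-A) differed by 0.48 on the arrays labelled HepG2 and -0.11 in K562, and PRPF39, a U1-associated protein, by -0.01 on the arrays labelled HepG2 and 0.05 in K562. None of the 3 reached 1.5-fold.

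The 11 U2 proteins were all kept in both lines. On the arrays labelled HepG2 their median was 0.30, with 9 above 0, and 1, SF3B5, reached 1.5-fold. SF3B5, a small subunit of SF3B, had 7.23 in ADARkd and 6.63 in SCR there (0.59, or 1.51-fold), and 7.95 in ADARkd and 7.77 in SCR in K562 (0.18). SF3B6, which lies near the branch point, had 7.77 in ADARkd and 7.23 in SCR on the arrays labelled HepG2 (0.53). In K562 its levels were 7.13 in ADARkd and 7.52 in SCR (-0.39), the lowest difference of all kept members there. The gene was therefore higher in ADARkd on the arrays labelled HepG2 and lower in ADARkd in K562.

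SNRPA1 (U2-A′), which binds U2 RNA together with SNRPB2, was the lowest kept member on the arrays labelled HepG2, with 5.65 in ADARkd and 6.005 in SCR (-0.36). In K562 its levels were 5.73 in ADARkd and 5.88 in SCR (-0.15), so it was lower in ADARkd in both lines. Its partner SNRPB2 differed by 0.33 on the arrays labelled HepG2 and -0.01 in K562. SF3B1, the large scaffold that is often mutated in myeloid neoplasms, differed by 0.15 on the arrays labelled HepG2 and -0.11 in K562. SF3B3, another scaffold of SF3B, had 9.99 in ADARkd and 10.0 in SCR on the arrays labelled HepG2 and 9.83 in ADARkd and 9.84 in SCR in K562, differences of -0.01 in each line. After quantile normalization the differences of SF3B3 were -0.16 on the arrays labelled HepG2 and 0.08 in K562, so its sign in K562 depends on the scaling. The SF3A subunits differed by 0.36 on the arrays labelled HepG2 and 0.11 in K562 for SF3A1, 0.08 on the arrays labelled HepG2 and 0.16 in K562 for SF3A2, and 0.35 on the arrays labelled HepG2 and -0.01 in K562 for SF3A3. SF3B2 differed by 0.30 on the arrays labelled HepG2 and 0.05 in K562, and SF3B4 by 0.10 on the arrays labelled HepG2 and 0.09 in K562.

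All 5 measured tri-snRNP proteins lay above 0 on the arrays labelled HepG2 as deposited, with a median of 0.46, but PRPF8 lay at -0.0025 after quantile normalization and -0.03 after loess, and PRPF6 lay below the median of all kept genes (-0.04 relative to it). PRPF31, which bridges U4 and U6 to U5 and is mutated in a form of retinitis pigmentosa, had 7.19 in ADARkd and 6.47 in SCR there (0.72, or 1.65-fold). Its K562 levels were 6.96 in ADARkd and 6.84 in SCR (0.11). PRPF4 had 8.31 in ADARkd and 7.85 in SCR on the arrays labelled HepG2 (0.46) and 8.80 in ADARkd and 8.90 in SCR in K562 (-0.10). Its partner on U4 and U6, PRPF3, differed by 0.54 on the arrays labelled HepG2 and -0.18 in K562. The large U5 proteins differed less. PRPF8, the scaffold of the catalytic centre, had 9.63 in ADARkd and 9.50 in SCR on the arrays labelled HepG2 (0.14) and 9.30 in ADARkd and 9.21 in SCR in K562 (0.09), and PRPF6 differed by 0.06 on the arrays labelled HepG2 and 0.08 in K562.

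Of the proteins of activation and catalysis, PRPF38A had 8.68 in ADARkd and 7.72 in SCR on the arrays labelled HepG2 (0.96, or 1.94-fold). Its K562 levels were 9.04 in ADARkd and 8.97 in SCR (0.06). PRPF38B differed by 0.53 on the arrays labelled HepG2 and -0.09 in K562. PRPF19, a ubiquitin ligase of the complex that activates the spliceosome, differed by 0.01 on the arrays labelled HepG2 and 0.12 in K562, and PRPF18, which acts at the second catalytic step, by -0.32 on the arrays labelled HepG2 and -0.11 in K562. PRPF18 and SNRPA1 were the kept members with the lowest differences on the arrays labelled HepG2, and both were also below 0 in K562.

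**Figure D2:**
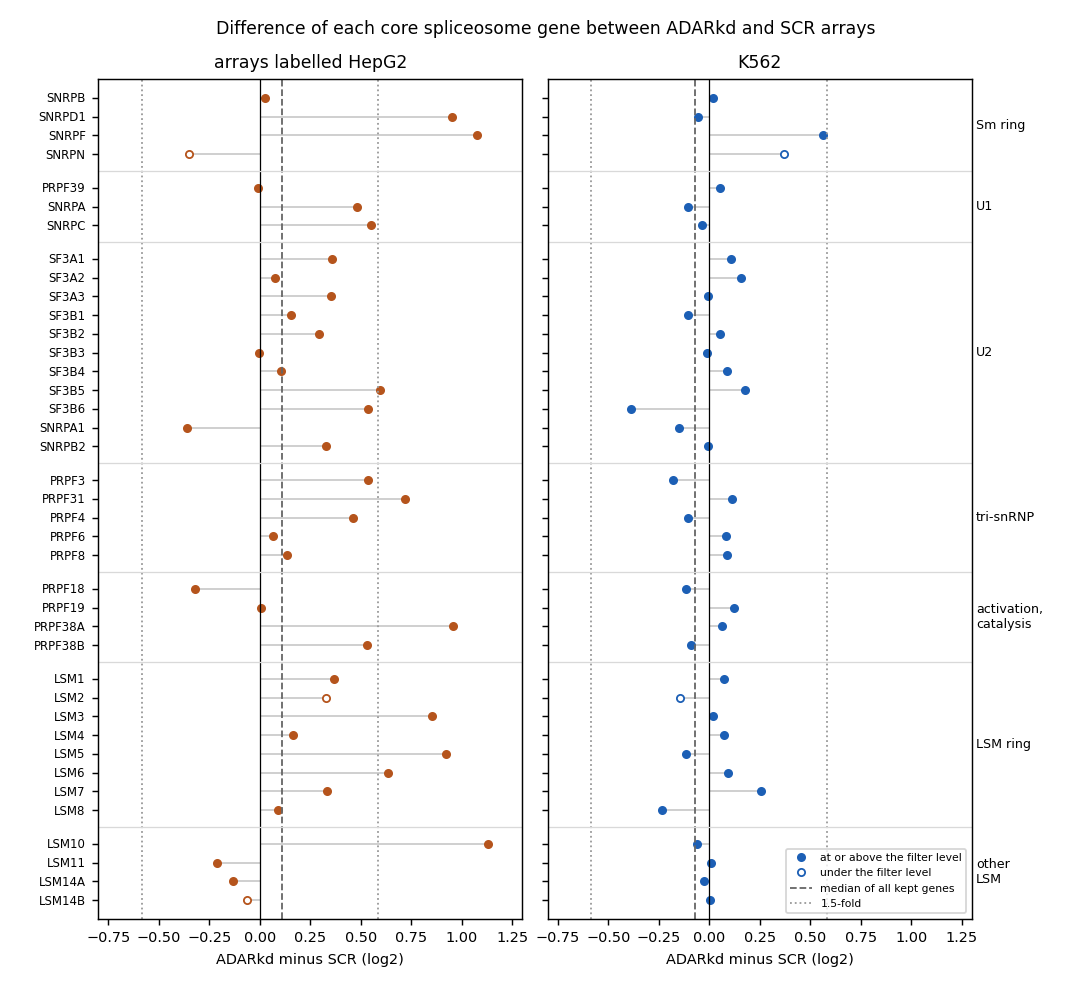
Log2 difference, ADARkd minus SCR, of each member (rows, by role) on the arrays labelled HepG2 (left) and in K562 (right); filled circles are members at or above the filter level, the dashed line is the median of all kept genes (0.11 and -0.07) and the dotted lines are at 1.5-fold. On the arrays labelled HepG2, 9 filled circles lie beyond the right dotted line, while in K562 none does and SNRPF (0.56) comes nearest.

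The higher values on the arrays labelled HepG2 were held mainly by members of middling intensity. Of the 13 members between the median and the 75th percentile of all genes' levels, 7 (53.8%) stood at least 1.5-fold higher, against 12.1% of all genes at those levels, and their median was 0.59, against 0.06. Of the 23 members at or above the 75th percentile, 2 (8.70%), PRPF38A and SNRPD1, did so, against 12.6% of all genes there, and the median of 0.17 was close to the 0.15 of all genes. The split by level was looked at after the values were seen. After quantile normalization and cyclic loess, which bring the median of all kept genes to 0.01, the members' median was 0.23 and 0.22, and 7 and 8 members stood 1.5-fold higher. Pseudogenes that carry a member's symbol are listed in RefSeq for 15 members, among them SNRPC (20), LSM3 (5), SNRPF (4), LSM6 (2) and PRPF38A (2). Their transcripts could bind the same probes, which makes these genes' values uncertain. Markers of another cell type moved in the same comparison. Fibroblast and stromal genes, of which 12 were measured and 7 kept here, had a median difference of -1.12, with COL3A1 at 4.93 in ADARkd and 7.35 in SCR, and LUM at 10.02 in ADARkd and 9.24 in SCR. Over all 12 measured, kept or not, the summed intensity was 2219 in ADARkd and 2219 in SCR. These equal sums hide opposite moves. Among the 7 kept, 2 (LUM and DCN) were higher in ADARkd and 5 lower. The part of these genes in the spliceosome values was not tested. In such bulk RNA fewer cells of a type and less RNA per cell cannot be told apart.

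In K562 the differences of the members were small. Of the 37 kept members 0 stood at least 1.5-fold higher in ADARkd and 0 at least 1.5-fold lower, against 0.267% and 0.759% of all 7116 kept genes. At 2-fold the members numbered 0 in each direction as well, against 0.0281% and 0.126% of all kept genes. The median was 0.01, against -0.07 for all kept genes, and 20 of 37 lay above 0, against 33.3% of all kept genes. After quantile normalization 27 of 37 lay above 0, against 49.6% of all kept genes, and after loess 26, against 45.2%. Quantile normalization, loess and subtraction of the median of kept genes each put 1 member, SNRPF, past 1.5-fold. With no filter on low values the members' median of 0.01 lay below the 0.02 of all genes, so the sign of the gap to all genes depends on the filter. The SD of the differences across members was 0.16 in K562 and 0.39 on the arrays labelled HepG2, and over all kept genes 0.19 and 0.47.

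**Figure D3:**
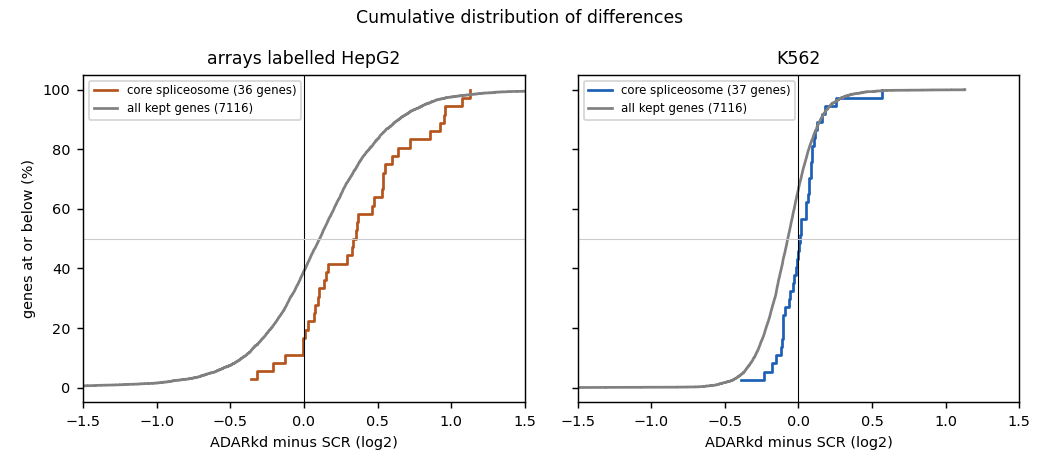
Share of genes (percent, vertical axis) at or below each log2 difference, ADARkd minus SCR, for the kept core spliceosome genes (coloured) and all kept genes (grey), on the arrays labelled HepG2 (left, 36 members) and in K562 (right, 37 members). The coloured curve crosses 50% at 0.34 on the left and 0.01 on the right, where the grey curve crosses at 0.11 and -0.07; the axis is drawn from -1.5 to 1.5 and leaves out the grey tails.

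The second comparison asked for an effect of the knockdown shared by the lines, with line and arm as terms in limma over the 6204 genes kept in both. No member passed at an adjusted p under 0.05, and 0% of all genes did, by limma with Benjamini-Hochberg adjustment. ADAR, the targeted gene, did not pass either, with a difference of -1.69 on the arrays labelled HepG2 and -1.21 in K562. Its shared difference of -1.45 was the lowest of all genes. The fit thus missed the knockdown itself, and that 0 members passed does not show that a shared difference is absent. At an unadjusted limma p under 0.05 there were 1 of 36 members and 179 of all genes (2.89%). The 1 member was SNRPF, higher in ADARkd in both lines. Its shared difference was 0.82 ± 0.22 (SE), with a limma p of 0.0047 and a limma adjusted p of 0.9996. The shared difference of the members had a median of 0.17, against 0.02 for all genes. Of the 36 members kept in both lines, 17 (47.2%) were above 0 in both, against 20.9% of all 6204 genes. Below 0 in both were 4 members, against 1623 of all 6204 genes. A further 13 members were above 0 on the arrays labelled HepG2 and below 0 in K562, and 2 were the reverse. Of all 6204 genes 2568 and 717 did so. In each line alone kept members lay above 0 more often than all kept genes. The shares were 83.3% against 60.9% on the arrays labelled HepG2 and 54.1% against 33.3% in K562. The share above 0 in both lines is therefore no separate sign of a shared effect, and a cut at 0 depends on the scaling. The member differences of the lines correlated at r = 0.16 (Pearson) and 0.05 (Spearman) across the 36 genes, which share their arrays and are not replicates. Over all 6204 genes the correlations were 0.03 (Pearson) and 0.04 (Spearman). The fit leaves 1 residual degree of freedom, so its errors rest mainly on the spread assumed across genes. The labels do not speak of separate cultures, and each line and arm has 1 array, so no spread within a condition was measured. Once line and arm are fitted, a gene's residual reflects only how unlike its knockdown differences are between the lines. A real line-specific response would thus count as error, as would technical spread, and the fit cannot tell them apart. The same holds for the limma SEs and p-values of K562 against the arrays labelled HepG2.

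The third comparison set K562 against the arrays labelled HepG2, to describe the levels of the splicing machinery in both lines. By limma with Benjamini-Hochberg adjustment over 8028 genes, LSM7 was the 1 member of 37 that was at least 2-fold apart with an adjusted p under 0.05, and it was higher in K562. Of all genes 10.3% met both criteria with the higher level in K562, and 14.7% with the higher level on the arrays labelled HepG2. With no bound on size 9 members (of 37) were higher in K562, where 19.5% of all genes were, and 0 were higher on the arrays labelled HepG2, where 22.5% of all genes were. The share of members higher in K562 was thus near that of all genes, and the share in the other direction below it. The rate of false calls with no bound on size was not checked on simulated data for this comparison. The members' median difference was 0.27, against 0.05 for all genes, and 30 of 37 lay above 0, against 52.2% of all genes.

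LSM7 had 6.78 in ADARkd and 6.53 in SCR in K562, against 5.63 in ADARkd and 5.29 in SCR on the arrays labelled HepG2. The difference was 1.20 ± 0.19 (log2, SE from limma; limma adjusted p = 0.0026), or 2.29-fold, and both K562 arrays lay above both others. Its SCR array labelled HepG2 lay just under the filter level, and LSM7 is not tested with the stricter filter. With an offset of 16 on the intensities the difference was 0.96, under 2-fold, and with treat, which tests against the 2-fold bound, it was not called. SF3B5 followed at 0.93 ± 0.22 (limma adjusted p = 0.012), with 7.95 in ADARkd and 7.77 in SCR in K562, against 7.23 in ADARkd and 6.63 in SCR on the arrays labelled HepG2. PRPF38A was higher in K562 by 0.81 ± 0.25 (limma adjusted p = 0.039), and its ADARkd array labelled HepG2 lay nearer to K562 than its SCR array.

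Of the 9 members that passed with no bound, 5 were among the 11 U2 proteins tested and 4 among the other members, where 19.5% of all genes passed in that direction. Whether U2 proteins stand apart was not tested. SF3A2, which contacts the intron near the branch site, was higher in K562 by 0.80 ± 0.20 (limma adjusted p = 0.018), with 7.82 in ADARkd and 7.66 in SCR in K562, against 6.98 in ADARkd and 6.91 in SCR on the arrays labelled HepG2. SF3A3 was higher by 0.76 ± 0.19 (limma adjusted p = 0.016), with 9.71 in ADARkd and 9.72 in SCR in K562, against 9.12 in ADARkd and 8.77 in SCR on the arrays labelled HepG2. SF3B1 (0.55) and SNRPB2 (0.75) were the others beside SF3B5. PRPF4 was higher by 0.77 ± 0.22 (limma adjusted p = 0.029) and PRPF18 by 0.76. In every one of the 9 both K562 arrays lay above both arrays labelled HepG2. At the low end, none of the 7 members below 0 passed. LSM11 differed by -0.43 ± 0.20 (limma adjusted p = 0.12), PRPF8 by -0.31 ± 0.18, SF3B6 by -0.18 ± 0.27 and SF3B3 by -0.16 ± 0.16. LSM5 (-0.03) and SNRPA1 (-0.02) lay near 0.

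**Figure D4:**
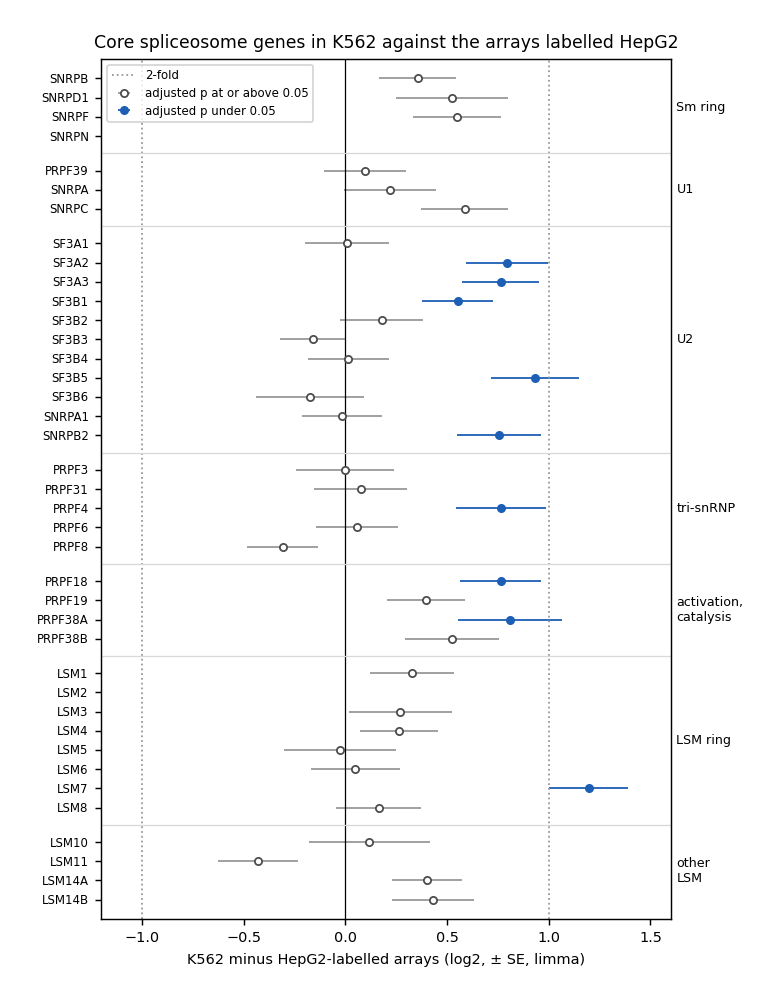
K562 minus the arrays labelled HepG2 for each member (log2, circles with bars of 1 SE from limma, 2 arrays per line), with filled circles at an adjusted p under 0.05 and dotted lines at 2-fold. The 9 filled circles all lie right of 0, LSM7 (1.20) alone past the right dotted line; LSM2 and SNRPN, kept in neither line, have no value.

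Within each arm the line difference could be read without a test. Between the ADARkd arrays the members' median difference, K562 minus HepG2-labelled, was 0.13, with 25 of 37 above 0, against 47.4% of all 8028 genes, and 1 at least 2-fold apart, against 2126 of all genes. Between the SCR arrays the median was 0.40, with 33 of 37 above 0, against 55.8% of all genes, and 5 at least 2-fold apart, against 2168 of all genes. Over all 8028 genes the medians were -0.05 between the ADARkd arrays and 0.12 between the SCR arrays. SNRPD1 differed by 0.02 between the ADARkd arrays and 1.03 between the SCR arrays. For LSM10 the values were -0.48 between the ADARkd arrays and 0.71 between the SCR arrays, for LSM5 -0.55 between the ADARkd arrays and 0.49 between the SCR arrays, and for PRPF38A 0.36 between the ADARkd arrays and 1.26 between the SCR arrays. LSM7 differed by 1.16 between the ADARkd arrays and 1.23 between the SCR arrays, nearly the same in each arm. These values use the same 4 arrays as the knockdown differences and are not separate evidence.

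**Figure D5:**
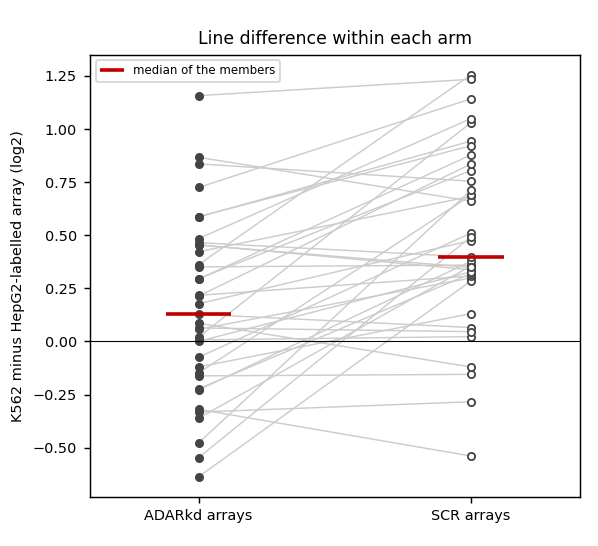
K562 minus the array labelled HepG2 (log2, vertical axis) for the 37 members kept in either line, between the ADARkd arrays (left) and between the SCR arrays (right), with a grey line per gene and a red bar at the median. The median is 0.13 on the left and 0.40 on the right, and LSM7 is the highest gene on the left (1.16).

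Other spliceosome genes, which the naming rule does not cover, came from a list of 53. All 44 measured ones were kept in both lines. On the arrays labelled HepG2, 7 of them (15.9%) stood at least 1.5-fold higher in ADARkd, near the 12.4% of all kept genes, and 0 lower. Their median was 0.23, and 37 of 44 (84.1%) lay above 0, against 60.9% of all kept genes. Above the median of all kept genes lay 32 of the 44. CWC27, a cyclophilin-like protein of the activated spliceosome, stood at 7.26 in ADARkd and 6.05 in SCR (1.21), with a difference of -0.33 in K562. ISY1 (0.79), SNW1 (0.71) and BUD31 (0.65), which all join the activated or catalytic complex, followed. RBM17, an early-acting factor, was the lowest at -0.48, then SF1, which first binds the branch site (-0.30), SNRNP48 of the minor spliceosome (-0.26) and the U5 helicase SNRNP200 (-0.21).

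In K562 the other spliceosome genes had a median of -0.06, with 13 of 44 above 0 against 33.3% of all kept genes, and 0 at least 1.5-fold apart in either direction. U2AF1, which reads the 3′ splice site, was the lowest at 6.40 in ADARkd and 6.95 in SCR (-0.54), followed by SMU1 (-0.46), PLRG1 (-0.34) and CWC27 (-0.33). PHF5A, a small SF3B subunit, was the highest at 0.25, then SNRNP40 (0.18), PUF60 (0.14) and SART1 (0.12). By limma 0 of the 44 passed for the shared effect. In K562 against the arrays labelled HepG2, SNRNP25 (1.10) and RBM17, past 2-fold by little, were the 2 genes of 44 higher in K562 by both criteria, and 0 were higher on the arrays labelled HepG2, against 10.3% and 14.7% of all genes. With no bound on size 7 were higher in K562 and 2, SNRNP48 and ZCRB1, on the arrays labelled HepG2, against 19.5% and 22.5%.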

How the data were processed

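Total RNA of the 4 samples was biotin-labelled for Affymetrix whole-transcript arrays, per the labels' protocols. Each value deposited by the authors is a linear intensity of 1 transcript cluster. The submitters' processing notes name RMA and hg18, and further steps are not given in the sources used here. Column medians were 36.1 to 37.0. No coordinates of clusters are given, since the builds differ.

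Of 17881 clusters, 14432 had 1 gene symbol in the platform annotation, 2408 several and 1041 none, and only the first kind was used. RefSeq held 14404 of those single symbols, matched by Entrez number, and 0 of them changed. Values were taken to log2 with no offset. Differences within a line have no test. The other comparisons were fitted with limma 3.58.1 (R 4.3.3) by lmFit, then eBayes with its trend option. Tests were two-sided with Benjamini-Hochberg adjustment and a threshold of 0.05. The fits were tested on simulated data, where the shared effect gave more false calls than that threshold allows. Of its simulated calls 13.0% were false with log2 changes of 1, and 10.9% with log2 changes of 2. For K562 minus HepG2 3.99% were false, but those calls also had to meet the 2-fold bound. Calls of that comparison with no bound on size were not checked this way. Figures were drawn with matplotlib 3.10.9. Promoters came from RefSeq on GRCh38.p14.

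The members, roles and lists were chosen with earlier results of these data known. Values in every array are given for members at least 1.5-fold apart in either line, the 6 at each end of K562 minus HepG2, and the largest of any role group left. Of the other spliceosome genes, the 4 at each end per line are named. Genes named outside this rule were chosen after their values were seen. The alternatives were quantile and loess normalization, array medians, no filter and a stricter one, cluster means, an offset of 16, other eBayes settings, treat, and each arm alone. Subtraction of the median difference of kept genes was added after seeing the data.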

Additional observations from a re-analysis of the deposited data

Results flagged for a closer look

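SF3B6 was higher in ADARkd on the arrays labelled HepG2 (0.53) and lower in ADARkd in K562 (-0.39), so that the difference between the lines' differences was 0.92 on the log2 scale. It was flagged because the single pair of arrays of each line moved in opposite directions, each by more than the typical residual SD of the fit (0.21). That SD is for a single array value, not for a difference, and is no measure of replicate noise. LSM10, LSM5 and SNRPD1 lay further apart between the lines, but their K562 differences were within that SD. The difference of SF3B6 was not tested, since it leaves no residual degrees of freedom. Over the normalizations, the cluster mean, the offset and the median subtraction, the gene ran from 0.40 to 0.55 on the arrays labelled HepG2 and from -0.39 to -0.30 in K562.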

How the results depend on the processing

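On the arrays labelled HepG2 the 9 members at least 1.5-fold higher became 2 with the filter at the 75th percentile, where fewer members are tested, and 7 to 9 elsewhere. The 2 members at least 2-fold higher became 1 after quantile normalization, after loess and after subtraction of the median, and 0 with the stricter filter and with the offset of 16. In K562, the 0 members at least 1.5-fold higher became 1 after quantile normalization, loess and median subtraction. For the shared effect 3 genes passed in all, and 0 members, when each array's median was subtracted. For K562 minus HepG2, 448 and 711 genes passed with the stricter filter as higher in K562 and on the arrays labelled HepG2, and 347 and 587 with treat, against 830 and 1184. The 1 member that passed became 2 after quantile normalization and 0 with the stricter filter, where LSM7 is not tested, the offset and treat. Between SCR arrays alone 5 members were 2-fold apart. Except where a filter changes the genes tested, the cause was not tested. Of single members, SNRPC and SNRPF passed for K562 minus HepG2 after quantile normalization (0.62 and 0.63), and SNRPC also after loess (0.54) and median centring (0.60). The fit of the shared effect compares ADARkd with SCR inside each line, since line is a term in it. No pairing finer than line was possible, because the labels give no replicate numbers and each line and arm has 1 array. Detection of single probes above background was not analysed here, which limits the dimmest members.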
